A study of Canis lupus familiaris with 6 samples.

Results

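Transcript levels were compared between a drilled hole that was left empty and one filled with beta-TCP, both in the mandible of beagle dogs aged 9 years and both sampled on day 7. Beta-TCP is beta-tricalcium phosphate, a resorbable calcium phosphate ceramic used as a bone substitute. The premolars had been extracted and the jaws left to heal for 3 months before the holes were drilled, 4.5 mm wide and 8 mm long, so both groups share that surgery. The comparison uses 2 of the 6 arrays of the study, the control array of day 7 and the beta-TCP array of day 7, chosen by treatment and time. The other 4 arrays are the same pair of treatments on days 4 and 14. Each array was hybridised with biotinylated RNA made from 100 ng of total RNA of a cylindrical bone specimen, on an Affymetrix canine expression array. The sources used here do not give the number of dogs or whether both specimens of day 7 came from the same dog. With 1 array in each group there are no replicates, so no difference below carries an error or a test, and each describes these 2 specimens.

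A hole drilled into bone first fills with a clot and inflammatory cells, then with a granulation tissue rich in vessels and mesenchymal cells, and osteoblasts then lay down woven bone that osteoclasts remodel. Osteoblasts secrete type I collagen and acidic proteins that bind mineral, and their alkaline phosphatase removes an inhibitor of mineral growth. Some become osteocytes, buried in the matrix. A ceramic granule offers a mineral surface on which both osteoblasts and osteoclasts can sit, and it also takes up part of the hole.

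A level below is an array's signal for a probe set divided by that array's median over all 42860 probe sets, so that 1 is the middle of the array. A difference is beta-TCP minus control on the log2(level + 1) scale, which understates the differences of weak signals. Where a pair of levels is given, the control comes first, and a number in brackets after it is the difference. A probe set is a group of short probes for one transcript, and 29254 probe sets were annotated to 1 gene. The probe set with the highest mean over the 6 arrays stood for each gene, and 10530 of 15112 genes passed the filter on low values. The 2 arrays were close over their probe sets, with a Spearman correlation of 0.90, a description only, since they share a design and a tissue.

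The median difference over the 10530 genes was -0.08, and the middle of the distribution ran from -0.38 at the lower quartile to 0.21 at the upper. Above 0 were 41.8% of all genes, against which the counts of list members below 0 are to be read. At least 2-fold higher in beta-TCP were 312 genes (2.96%), and at least 2-fold lower were 362 (3.44%), together 6.4%. These percentages are the background for every count of a gene list below. With each array's difference centred on its median over genes the split was 374 higher and 278 lower, and with quantile normalisation 314 and 293, so which direction is the larger depends on the scaling. The split also moved with signal. With the genes cut by mean signal into 4 bins of nearly equal size, 1.71% were higher and 5.24% lower in the strongest bin, while 4.26% were higher and 3.04% lower in the bin above the weakest.

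**Figure D1:**
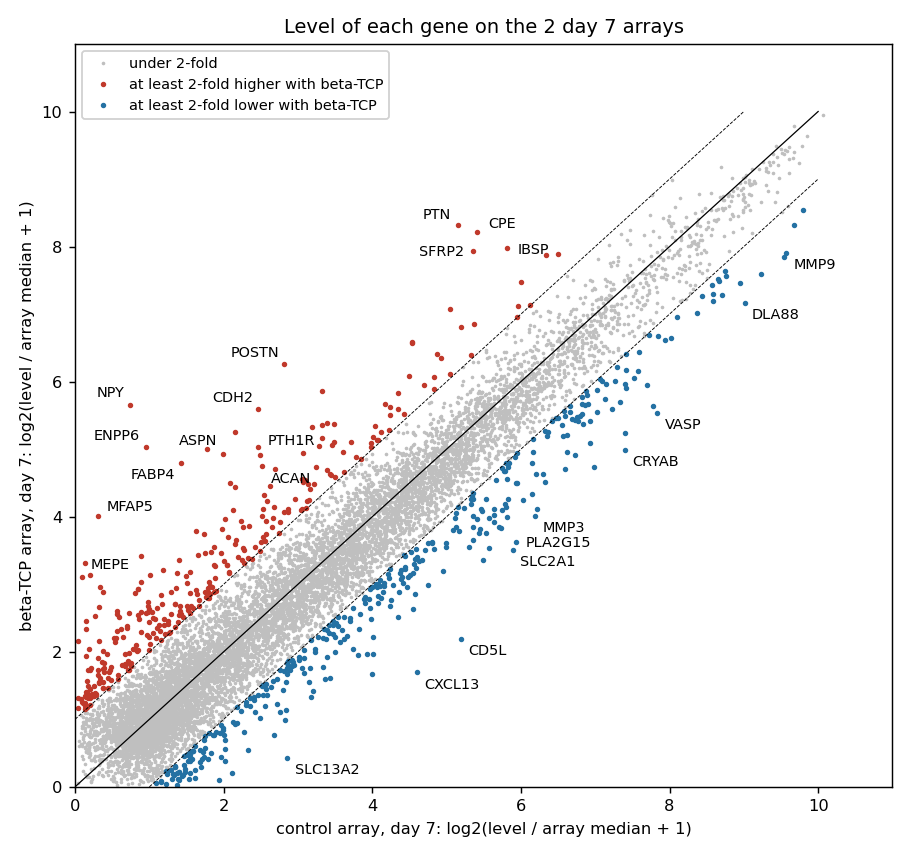
Levels on the control array of day 7 (horizontal) and the beta-TCP array of day 7 (vertical), both as log2(level + 1), with 1 point per kept gene, a diagonal of equal levels and dashed lines at a 2-fold difference. Most of the 10530 genes lie between the dashed lines, the 312 red points above them and the 362 blue points below, and NPY, CD5L and CXCL13 are among those farthest out.

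The highest differences were those of NPY and ENPP6. NPY, the peptide transmitter neuropeptide Y, had a level of 0.67 in the control and 49.6 in beta-TCP, a difference of 4.92. ENPP6, a phosphodiesterase of the membrane found in mineralising bone, had 0.932 in the control and 31.6 in beta-TCP, a difference of 4.08, while its other probe set above the filter read 1.44. Both genes were below the middle of the control array and well above it on the beta-TCP array. MFAP5, a glycoprotein of extracellular microfibrils, went from 0.235 to 15.1 (3.71, other probe set 1.82), and POSTN, the matricellular protein periostin of periosteum and healing tissue, from 6.04 to 75.4 (3.44). PTN, a heparin-binding growth factor stored in matrix, measured 34.5 in the control and 319 in beta-TCP (3.17). Unlike NPY and ENPP6, PTN was already well above the middle of the control array.

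Among the other genes of the highest 20, TNN (tenascin-N, a glycoprotein of periosteum) stood at 0.0933 and 8.97 on the control and beta-TCP arrays, and GPRC5C, an orphan G protein-coupled receptor, at 2.41 and 30.9. NDNF, a secreted factor first described in neurons, had levels of 3.44 and 37.1, and CPE, the carboxypeptidase that trims prohormones in secretory granules, 41.7 and 296. For CRABP1, which binds retinoic acid in the cytoplasm, the levels were 0.259 and 6.79. All 5 differed by 2.63 or more. CPZ, a carboxypeptidase of the matrix with a Wnt-binding domain, and DESI2 closed the 20, at 2.52 and 2.50. The remaining members are described with their groups.

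The lowest differences were those of CD5L and CXCL13. CD5L, a scavenger-type protein secreted by macrophages, had a level of 35.7 in the control and 3.56 in beta-TCP, a difference of -3.01. CXCL13, a chemokine that draws B cells, measured 23.4 in the control and 2.23 in beta-TCP (-2.91), and its second probe set read -4.0. CRYAB, a small heat shock protein, stood at 168 in the control and 30.7 in beta-TCP (-2.41). These 3 genes were at least 5 times weaker on the beta-TCP array in level. Also among the lowest 20 were SLC13A2, a citrate and succinate transporter (-2.42), PKIA, an inhibitor of protein kinase A (-2.33), and VASP, which extends actin filaments (-2.30). The lipases PLA2G15 of the lysosome (-2.31) and PLA2G5, which is secreted (-2.05), were there too, as were PRSS22, a serine protease (-1.91), SEMA7A, a membrane-anchored semaphorin (-1.90), CLIP4, a microtubule-binding protein (-1.96), and ABCB4, a phospholipid exporter (-1.90).

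A difference between a pair of arrays can come from a high value on one or a low value on the other, so each was placed among the 6 arrays. Of the 312 higher genes, the beta-TCP array of day 7 was the highest of the 6 in 163 (52.2%, against 11.3% of all kept genes). The control array of day 7 was the lowest of the 6 in 106 of them (34.0%, against 7.00%), and both held in 38. Of the 362 lower genes, the control array of day 7 was the highest of the 6 in 216 (59.7%, against 20.3% of all kept genes), and the beta-TCP array of day 7 the lowest in 89 (24.6%, against 8.77%). The values of day 7 themselves chose these genes, so the shares are a description. Most of the lower genes were therefore strong on the control array of day 7 relative to the other 5. For CRYAB the control array of day 7 read 168 and the other 5 read 30.7 or less, with 4.73 and 3.92 on day 4 and 3.90 and 17.3 on day 14. CD5L had the same shape, 35.7 on that array and 9.69 or less on the rest.

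**Figure D2:**
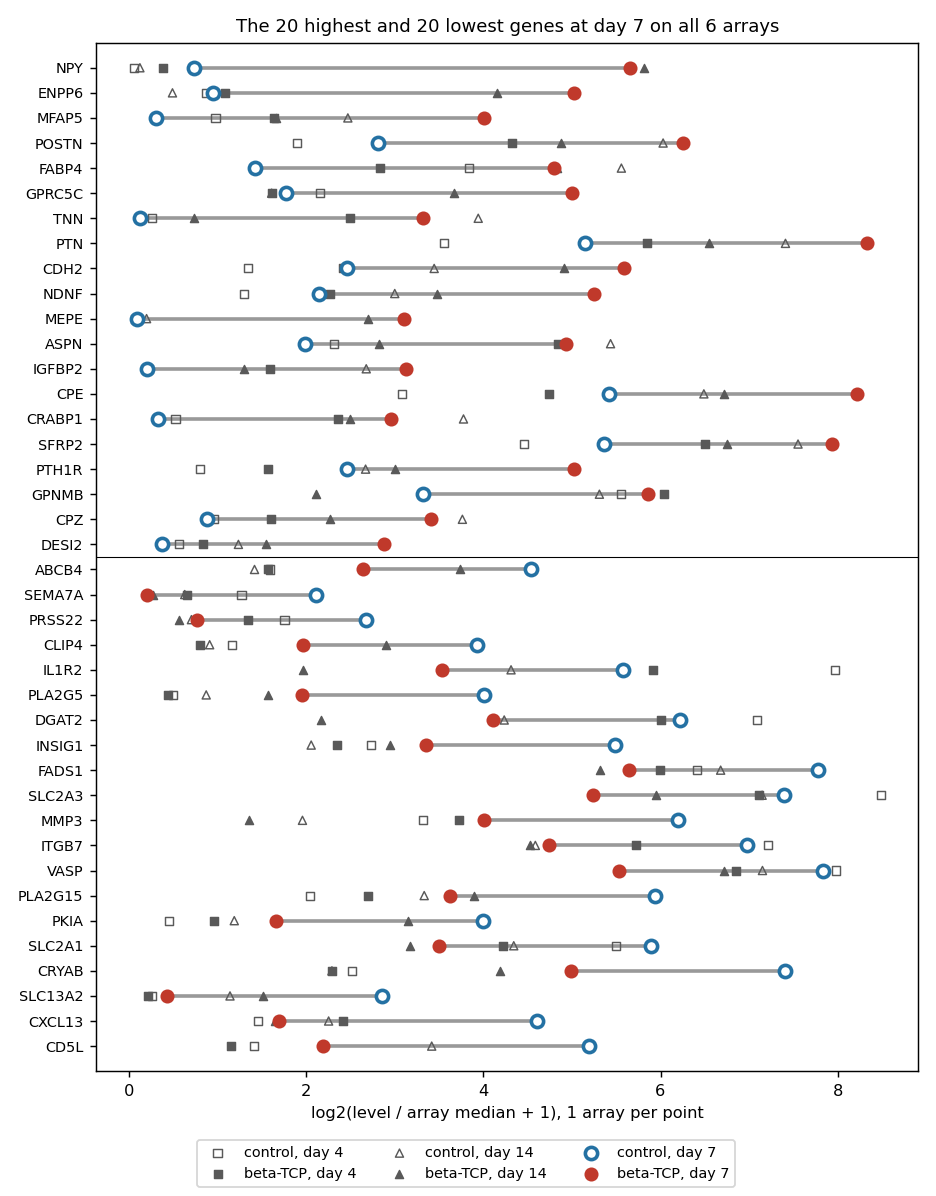
Levels, as log2(level + 1), of the 20 highest and 20 lowest genes of day 7 on all 6 arrays, 1 point per array, with blue rings (control) and red discs (beta-TCP) for day 7 joined by a bar, squares for day 4 and triangles for day 14, open for control and filled for beta-TCP. NPY is above the array median on the beta-TCP arrays of days 7 and 14 and below it on the other 4, and CRYAB and CD5L are highest on the control array of day 7.

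The labelled tissue was checked against defining markers. Osteoclast markers and the osteoblast markers SPP1 (osteopontin) and COL1A1 were strong on both arrays of day 7. SPP1 was at 653 and 589, COL1A1 at 820.0 and 881 and CTSK (cathepsin K) at 857 and 603. Other osteoblast markers were weaker, with IBSP at 55.3 and 251, ALPL at 10.2 and 40.2, RUNX2 at 1.72 and 2.02 and BGLAP at 0.653 and 4.95. Both specimens thus held RNA of genes used here as markers of bone-forming and bone-resorbing cells, but not of every osteoblast marker at a strong level. SP7, an osteoblast transcription factor on the marker list, had no probe set annotated to it alone. The summed levels of the 6 osteoblast markers measured were 1541 and 1769, and those of the 4 osteocyte markers 3.71 and 16.1. The osteoblast sums rest mostly on SPP1 and COL1A1. The osteocyte difference lay in MEPE (0.0659 and 7.64) and PHEX (0.472 and 5.07). DMP1 was within 2-fold, at 1.80 and 2.88 (0.47), and SOST went the other way, at 1.37 and 0.532 (-0.63). The 5 osteoclast markers summed to 2629 and 1314. In a bulk specimen, fewer cells of a type and less RNA per cell cannot be told apart, and this holds for every group described here.

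Among osteoblast and bone matrix proteins, 5 of 12 members were at least 2-fold higher in beta-TCP and none lower, with a median of 0.56 against -0.08 over all genes. IBSP (bone sialoprotein), which binds mineral and collagen, had a level of 55.3 in the control and 251 in beta-TCP (2.16). BGLAP (osteocalcin), a late product of osteoblasts, measured 0.653 in the control and 4.95 in beta-TCP (1.85), and its other probe set read 1.83. MEPE, a phosphoglycoprotein of osteocytes, was near the floor of the control array at 0.0659 and reached 7.64 in beta-TCP (3.02, other probe set 2.44). These 3 genes belong to mineralising osteoblasts or osteocytes. OMD (osteomodulin), a proteoglycan of bone, measured 80.1 and 234, and TNN, given above, is the fifth. The strongest members were within 2-fold, with SPP1 at -0.15, COL1A1 at 0.10, COL1A2 at -0.21 and SPARC (osteonectin) at 0.07. The median of this list rests on which probe sets are read: it was 0.09 with probe sets named Cfa only, 1.97 with those named CfaAffx only, 1.86 with the brightest probe sets left out and 0.10 with a stricter filter, and its sign was positive in all 13 alternatives.

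Of the genes for phosphate handling, 4 of 9 were higher and 1 lower, with a median of 0.05 whose sign changed between alternatives. ALPL, the alkaline phosphatase that cleaves pyrophosphate, measured 10.2 in the control and 40.2 in beta-TCP (1.88), and its probe sets differed by 1.88 and 1.89. PHEX, a peptidase of osteoblasts and osteocytes that acts on phosphate regulation, had levels of 0.472 and 5.07 (2.04). PTH1R, the receptor of parathyroid hormone on osteoblasts, went from 4.53 to 31.6 (2.56). ENPP6 is the fourth. The enzyme that makes pyrophosphate, ENPP1, went the other way, from 17.8 to 5.41 (-1.55). The phosphate transporter SLC20A1 (-0.61), its relative SLC20A2 (0.05) and the pyrophosphate exporter ANKH (-0.37) were all within 2-fold.

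Osteoblast transcription factors and genes of the bone morphogenetic protein (BMP) pathway had a median of 0.48, with 4 of 16 higher, none lower and 15 above 0. The ligand BMP4 went from 0.973 to 5.41 (1.70) and BMP6 from 7.75 to 21.5 (1.36), while BMP2 was 137 and 84.8 (-0.69). The ligands did not share a direction. BAMBI, a decoy receptor of this pathway, measured 2.32 and 12.4 (2.01), and ID1, a common target gene, 19.4 and 47.5 (1.25). The transcription factors themselves were within 2-fold, with RUNX2 at 0.15, DLX5 at 0.94, DLX6 at 0.88 and MSX2 at 0.64. RUNX2, the regulator of osteoblast commitment, had levels of 1.72 and 2.02.

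In the Wnt pathway 2 of 16 members were higher and 1 lower, with a median of 0.30. SFRP2, a secreted Wnt modulator of mesenchymal cells, measured 40.03 in the control and 244 in beta-TCP (2.58), and its 3 probe sets read 2.25 to 2.93. FRZB, a related secreted inhibitor, had 1.24 and 3.52 (1.01). The lower gene was RSPO3, an R-spondin that strengthens Wnt signals, at 10.8 and 3.44 (-1.42). AXIN2, a widely used Wnt target gene, differed by -0.51, and SOST (sclerostin), the Wnt inhibitor of osteocytes, by -0.63.

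Small leucine-rich proteoglycans, which coat and space collagen fibrils, had a median of 0.77, with 4 of 10 higher and none lower. ASPN (asporin) measured 2.96 in the control and 29.5 in beta-TCP (2.95), and OGN (osteoglycin) 4.59 in the control and 29.1 in beta-TCP (2.43). CHAD (chondroadherin) went from 0.623 to 4.19 (1.68), and OMD is the fourth. The most widely expressed members were closer, with DCN (decorin) at 0.50 and LUM (lumican) at -0.13. Leaving out probe sets near the array maximum raised the median of this list to 1.21.

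Matricellular and elastic fibre proteins had a median of only 0.14, but 7 of 27 were higher and 1 was lower. Beside POSTN, MFAP5 and TNN, THBS2 (thrombospondin 2, which limits vessel growth) measured 31.95 in the control and 134 in beta-TCP (2.04, other probe set 2.40). THBS4, of tendon and muscle matrix, had 0.311 and 2.58 (1.45). The fibulins FBLN1 (21.5 and 66.7, 1.59) and EFEMP1 (8.43 and 25.7, 1.5), which link elastic fibres and basement membranes, were higher too. ELN (elastin) itself was at -0.78, and the microfibril protein FBN2 (fibrillin 2) was the lower member, from 48.8 to 14.2 (-1.71), with a second probe set at -0.25. FN1 (fibronectin, -0.13) and THBS1 (-0.05) hardly differed on the probe sets that stood for them. The connective tissue growth factor CCN2 read -0.11 on its standing probe set but 1.26 on a weaker one, at 4.66 and 12.5. The median was 0.67 with CfaAffx probe sets only.

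Collagen chains had a median of 0.39, and 5 of 21 were higher and none lower. The 5 were minor chains: COL12A1 and COL14A1, which sit on the surface of fibrils, at 1.16 and 1.36, COL16A1 at 1.24, COL24A1, a fibrillar chain of bone, at 1.25, and COL9A1, a cartilage chain, at 1.03. COL12A1, the strongest of them, measured 61.1 in the control and 138 in beta-TCP, and its 4 probe sets ranged from 0.44 to 2.30. The chains of basement membranes, COL4A1 (-0.21), COL4A2 (-0.55) and COL15A1 (-0.66), were below 0. Of 20 proteins that fold, cleave or crosslink collagen, 2 were higher and none lower, with a median of -0.10 whose sign changed between alternatives. The 2 were SERPINH1, the collagen chaperone HSP47, at 10.3 and 22.95 (1.08), and FKBP10, its partner in the endoplasmic reticulum, at 7.26 and 16.2 (1.06). LOX, which crosslinks collagen, was at 0.09 and LOXL2 at -0.61.

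**Figure D3:**
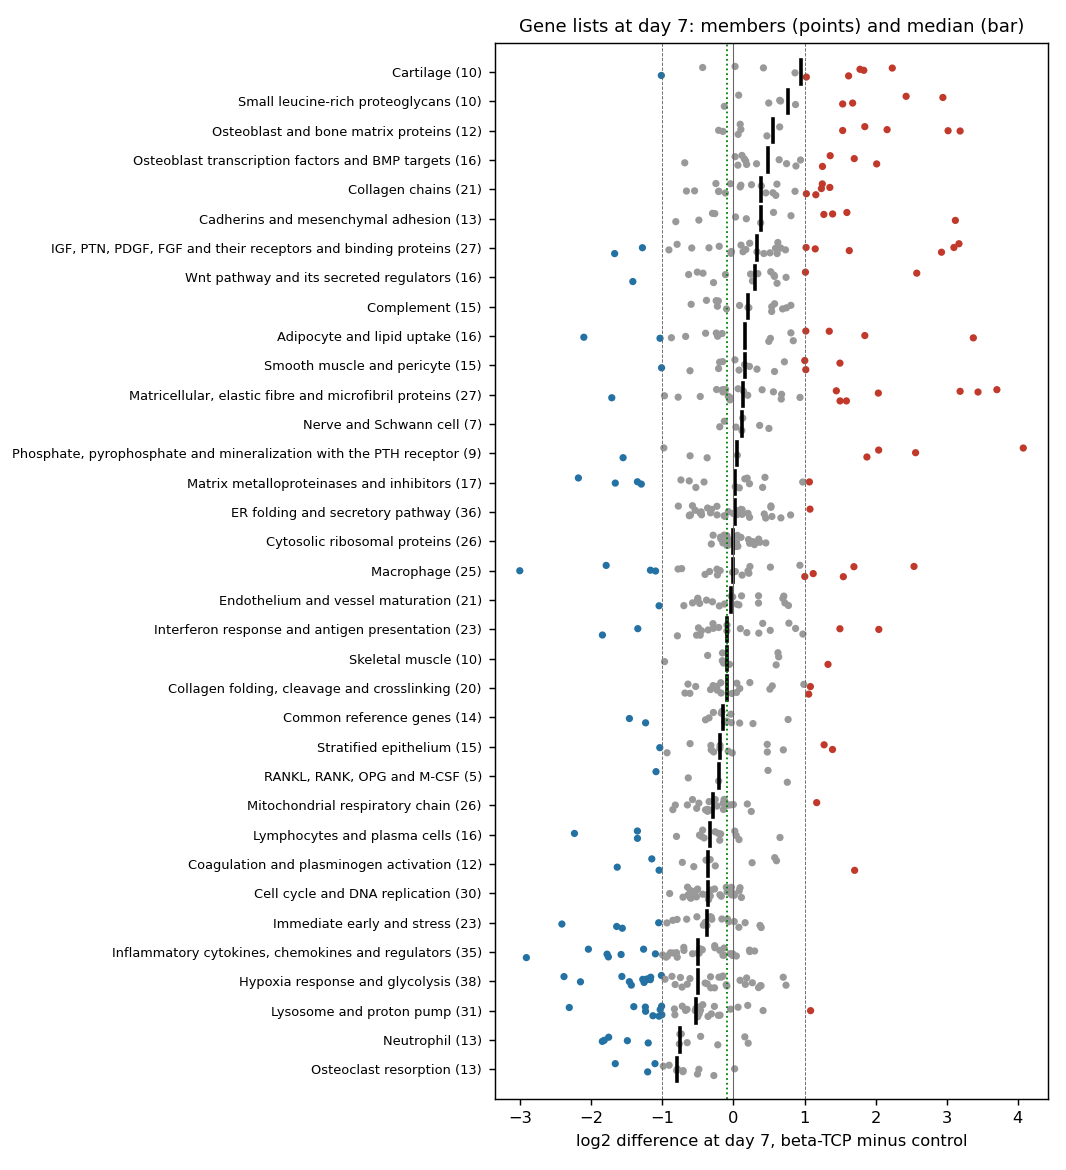
Day 7 differences (log2, beta-TCP minus control), 1 point per gene, for those of the 38 lists that kept at least 5 members (their number in brackets). Lists that kept fewer, such as the NPY list with 2, and the 3 lists added later are not drawn. Points are red or blue where at least 2-fold, a black bar marks the list's median and a dotted line the median of all genes, -0.08. Among the lists drawn, the bars of the cartilage list (0.95) and the small leucine-rich proteoglycans (0.77) lie farthest right, and those of the osteoclast (-0.79) and neutrophil (-0.75) lists farthest left.

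Cartilage genes had a median of 0.95, and 5 of 10 kept members were higher and 1 lower. That median was 0.45 over all 18 members with a probe set, without the filter. ACAN (aggrecan), the large proteoglycan of cartilage, measured 4.70 in the control and 25.8 in beta-TCP (2.23). CNMD (chondromodulin) had 0.255 and 3.47 (1.83), HAPLN1, which links aggrecan to hyaluronan, 0.942 and 4.97 (1.62), and MATN2 (matrilin 2) 4.84 and 19.05 (1.78). COL9A1 (1.03) is the fifth. The defining genes of cartilage were low on both arrays: COL2A1 read 0.374 and 0.406, MATN1 0.156 and 0.0331 and SOX9 0.601 and 1.65. None of these 3 passed the filter, so the higher members of this list stood without the collagen that defines cartilage. SOX5, a transcription factor that works with SOX9, was the lower member (-1.02).

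Cadherins and other adhesion proteins had a median of 0.38, and 4 of 13 were higher and none lower. CDH2 (N-cadherin), which joins mesenchymal cells and osteoblasts, measured 4.52 in the control and 47.1 in beta-TCP (3.12). CDH11, the osteoblast cadherin, measured 89.5 in the control and 237 in beta-TCP (1.39, other probe set 1.61). NCAM1 had 1.44 and 6.39 (1.6), and VCAM1, the counter-receptor of a leukocyte integrin, 17.9 and 44.6 (1.27). The cadherin of vessels, CDH5, read 1.16 and 0.763 and differed by -0.30. Both mesenchymal cadherins therefore stood higher in beta-TCP on these arrays, and the vascular one did not.

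Growth factors with their receptors and binding proteins had a median of 0.33, with 6 of 27 higher and 2 lower. Of the ligands, PTN led (3.17), followed by NDNF (3.10), IGF1, at 1.81 and 7.70 (1.63, other probe set 1.67), FGF1 (1.15) and PDGFD (1.02). The ligands IGF2 (-0.20), FGF2 (0.23) and TGFB1 (-0.03) were near 0. Among the binding proteins of insulin-like growth factors, IGFBP2 went from 0.151 to 7.75 (2.93) and IGFBP6 from 42.1 to 12.5 (-1.67), with a second probe set of IGFBP6 at -0.34. These binding proteins lay in opposite directions. SDC4, a heparan sulphate proteoglycan that presents growth factors, was lower on all of its 3 probe sets (-1.46 to -1.08), and SDC2 was at 0.51. No receptor of the list reached 2-fold, with PDGFRA at 0.67, FGFR2 at 0.62, IGF1R at -0.91 and TGFBR2 at -0.79.

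NPY stood apart from the nerve markers. Of the 5 NPY-related genes with a probe set, NPY and the peptidase DPP4, which shortens the peptide, passed the filter, and DPP4 differed by -0.85. Nerve and Schwann cell markers were below the array median on both arrays except PRPH (peripherin), at 1.54 and 1.60: SOX10 read 0.645 and 0.301, TH (tyrosine hydroxylase of sympathetic nerves) 0.0603 and 0.243, NEFL 0.0347 and 0.0991 and S100B 0.331 and 0.881. The summed level of the 5 with a probe set was 2.61 in the control and 3.13 in beta-TCP. Of the 7 kept members of the wider nerve list none was 2-fold different, and the median was 0.12.

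Adipocyte and lipid uptake genes divided, with 4 of 16 higher, 2 lower and a median of 0.17. FABP4, the fatty acid carrier of adipocytes, capillaries and macrophages, measured 1.68 in the control and 26.8 in beta-TCP (3.38). CD36, a fatty acid and scavenger receptor, went from 2.93 to 13.1 (1.85), and PPARG, the regulator of fat cell formation, from 0.0939 to 1.21 (1.02). Defining adipocyte genes were low on both arrays, with ADIPOQ (adiponectin) at 0.885 and 1.70, LEP (leptin) at 1.06 and 0.846 and PLIN1 (perilipin) at 0.1 and 0.046. APOD, a lipid-binding apolipoprotein, is the fourth higher gene (1.35). The summed adipocyte markers of 3.72 and 29.4 therefore rest on FABP4. Lower were PLIN2, which coats lipid droplets in many cells (-1.03), and DGAT2, which makes triglyceride, at 73.5 and 16.3 (-2.11). The 4 probe sets of DGAT2 ran from -2.11 to 0.78, so its direction depends on the probe set read.

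Of 13 genes of osteoclast resorption 3 were at least 2-fold lower and none higher, 12 lay below 0, and the median was -0.79. MMP9, the gelatinase of osteoclasts and neutrophils, measured 758 in the control and 239 in beta-TCP (-1.66). ACP5, the tartrate-resistant acid phosphatase that marks osteoclasts, measured 429 in the control and 199 in beta-TCP (-1.10, other probe set -0.59). TCIRG1, the osteoclast subunit of the proton pump that acidifies the resorption pit, measured 434 in the control and 188 in beta-TCP (-1.21, other probe set -1.20). All 3 were strong on both arrays. Within 2-fold but also below 0 were CTSK (-0.51), ATP6V0D2 (-0.80), the chloride channel CLCN7 (-0.71) and SIGLEC15, a receptor of fusing osteoclasts (-0.99). The control array of day 7 had the highest summed osteoclast markers of the 6, 2629 against 588 to 1789 on the others. TNFSF11 (RANKL), the signal that makes osteoclasts form, was 6.19 in the control and 2.38 in beta-TCP (-1.09), and its decoy TNFRSF11B (osteoprotegerin) 0.362 and 1.30 (0.76). The receptor TNFRSF11A (RANK) differed by 0.49.

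Of 31 lysosomal genes 9 were at least 2-fold lower and 1 higher, 27 lay below 0, and the median was -0.53. Of these 9, 4 encode parts of the proton pump: ATP6AP1 (-1.40), ATP6V0B (-1.24), ATP6V0C (-1.01) and ATP6V1D (-1.05). The others were PLA2G15, the protease CTSD (-1.13), the glycosidase GUSB (-1.24), PSAP, the precursor of saposins (-1.03), and NPC2, which carries cholesterol out of the lysosome (-1.01). The higher member was LIPA, the acid lipase (1.08). Osteoclasts, macrophages and neutrophils are all rich in lysosomes, and their summed markers were all lower in beta-TCP, at 2629 and 1314, 437 and 234, and 1423 and 965. Their part in the lysosomal difference was not tested, and the macrophage sum lay mainly in CD68 (347 and 154).

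Macrophage genes did not share a direction: 5 of 25 were higher and 4 lower, with a median of -0.01. Lower were CD5L, MARCO, a scavenger receptor (15.1 and 3.66, -1.79, other probe set -1.65), CD68, a lysosomal glycoprotein (347 and 154, -1.17), and CD14, the coreceptor for bacterial lipopolysaccharide (-1.10). Higher were GPNMB (osteoactivin), at 8.97 and 56.98 (2.54), VSIG4, a complement receptor of resident macrophages (0.797 and 4.82, 1.69), and TREM2, a lipid-sensing receptor (1.24 and 5.54, 1.55). MSR1 (1.12) and APOE (1.0) made up the 5, of which APOE stood just at the threshold and had a difference of -0.21 with Cfa probe sets only. The complement chains made by macrophages, C1QA (0.22), C1QB (-0.23) and C1QC (0.20), and ITGAM (-0.01) hardly differed. The lower sum of the macrophage markers thus lay mainly in CD68, which osteoclasts also express.

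Of 38 genes of glycolysis and the response to low oxygen, 12 were at least 2-fold lower and none higher, and the median was -0.51, with 29 below 0 and 9 above. The glucose transporters stood first. SLC2A1 (GLUT1) measured 58.3 in the control and 10.3 in beta-TCP (-2.38), and its 3 probe sets ran from -2.38 to -1.13. SLC2A3 (GLUT3), the transporter of leukocytes and neurons, measured 167 in the control and 36.9 in beta-TCP (-2.15), but 1 of its 4 probe sets read -0.11. VEGFA, the growth factor of vessels, went from 72.7 to 23.8 (-1.57), with a second probe set at -0.35. Glycolytic enzymes 2-fold lower were PGK1 (182 and 65.5, -1.46), PFKFB3 (-1.44), ENO1 (-1.26), GPI (-1.22), ALDOA (-1.17) and TPI1 (-1.01). With them were the lactate exporter SLC16A3 (-1.16), the vasodilator peptide ADM (-1.28) and ERO1A, which forms disulphide bonds (-1.22). Not every gene of the pathway followed, as GAPDH (-0.09), PKM (0.35) and HK1 (0.17) were near 0. The hypoxia targets BNIP3 (0.74), EGLN3 (0.39) and CA9 (-0.10) were not lower by 2-fold. BNIP3 (0.248 and 1.08) and CA9 (0.988 and 0.851) were weak, however. A control level below 1 cannot fall by 2-fold on this scale.

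Inflammatory mediators and their regulators had a median of -0.50, with 31 of 35 below 0, 7 at least 2-fold lower and none higher. CXCL13 led, followed by IL1R2, the decoy receptor of interleukin 1, at 46.6 and 10.6 (-2.04). OSM (oncostatin M), a cytokine of neutrophils and macrophages, measured 4.03 in the control and 0.465 in beta-TCP (-1.78), and CCL3, a chemokine of macrophages, 38.5 in the control and 10.7 in beta-TCP (-1.76). PPBP, a chemokine of platelets (-1.58, other probe sets -0.06 and 0.46), PTGS2, the inducible cyclooxygenase (-1.27), and PTGES, which makes prostaglandin E2 from its product (-1.10), completed the 7, and the direction of PPBP depends on the probe set read. The classical cytokines were within 2-fold, with IL1B at 10.5 and 5.67 (-0.79), IL6 at -0.85 and TNF at 0.04. IL10, which restrains inflammation, was at -0.70, so members of both kinds lay below 0.

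Neutrophil genes had a median of -0.75, with 5 of 13 lower and none higher. LTF (lactoferrin) of their granules measured 12.95 in the control and 2.88 in beta-TCP (-1.85), and PADI4, which citrullinates histones, 9.80 in the control and 2.06 in beta-TCP (-1.82). ADGRE3 (-1.76), CSF3R, the receptor of granulocyte colony-stimulating factor (-1.49), and TREM1 (-1.20) were the others. The most abundant calcium-binding proteins of neutrophils, S100A8 at 711 and 516 and S100A9 at 699 and 445, were within 2-fold (-0.46 and -0.65), and MPO read 0.026 and 0.0525. With a pseudocount of 0.25 in place of 1 the median was -1.27. Of 16 lymphocyte genes 3 were lower and none higher, with a median of -0.34: ITGB7, an integrin of gut-homing lymphocytes (125 and 25.8, -2.24), CD4 (-1.35) and the B cell protein MS4A1 (-1.35). CD3E, a chain of the T cell receptor complex, was at -0.48, and JCHAIN, of plasma cells, at -0.21, with other probe sets at -1.19 and -1.20. The share of the inflammatory difference that goes with these cells was not tested.

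Proteases of the matrix were mixed in direction, with 1 of 17 higher and 4 lower. MMP3 (stromelysin) measured 72.3 in the control and 15.1 in beta-TCP (-2.18), and MMP13, the collagenase of bone, 384 in the control and 156 in beta-TCP (-1.30, other probe set -1.54). The inhibitor TIMP1 went with them, from 818 to 320.0 (-1.35), and MMP9 is given above. MMP2, the gelatinase of mesenchymal cells, was the higher one, from 39.1 to 82.99 (1.07), although 1 of its 3 probe sets read 0.0. Of 12 genes of coagulation and plasmin, SERPINE2, a thrombin inhibitor of connective tissue, was lower on all 3 probe sets (-2.69 to -1.64). F3 (tissue factor, -1.15) and VWF (von Willebrand factor, -1.05) were lower, and F13A1, the clot-crosslinking factor made by macrophages, was higher at 3.70 and 14.3 (1.70).

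Among genes of the interferon response and antigen presentation, 2 of 23 were higher and 2 lower, with a median of -0.09. MX1, an antiviral GTPase, measured 8.98 in the control and 40.2 in beta-TCP (2.04), and ISG15, a ubiquitin-like modifier, 19.3 in the control and 56.2 in beta-TCP (1.5, other probe set 2.23). Their relatives RSAD2 (0.98), IFIT2 (0.87), USP18 (0.78) and MX2 (0.52) were above 0 but within 2-fold. The exonuclease ISG20 was lower (-1.35), and so was the classical class I gene DLA88, at 516 and 143 (-1.84, other probe set -0.94). B2M, the light chain of class I molecules, differed by -0.28, and CD74, of class II, by 0.36. Class I genes of the dog are closely alike in sequence, so the value of DLA88 is uncertain.

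Immediate early and stress genes had a median of -0.37, with 4 of 23 lower and none higher. Beside CRYAB they were IER3 (52.7 and 16.2, -1.64), ZFP36, which destabilises cytokine messages (55.5 and 18.1, -1.56), and the phosphatase DUSP5 (-1.05). The genes that answer most quickly to handling, FOS (-0.42), JUN (-0.32) and EGR1 (-0.16), were within 2-fold. Of 30 cell cycle genes none reached 2-fold, 26 lay below 0 and the median was -0.36, with RRM2 at -0.90, MCM2 at -0.65 and TOP2A at -0.27. The respiratory chain was alike, with 23 of 26 below 0 and a median of -0.29, and 1 member, SDHD, higher (1.17).

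The groups that follow had medians between -0.19 and 0.20, and some held members past 2-fold. Cytosolic ribosomal proteins had a median of -0.01 and a range from -0.31 for RPS27A to 0.46 for RPL4, none of 26 past 2-fold. The endoplasmic reticulum and secretory pathway had a median of 0.02 over 36 genes, with SEC23A, a coat protein of transport vesicles, the only one past 2-fold (1.08). None of 15 complement genes passed 2-fold on the probe set that stood for it, at a median of 0.20. The direction of C2 depends on the probe set read, with 0.75 on the standing one and -2.21, -1.39, -1.28 and 1.24 on others. C1S, at 0.54 on its standing probe set, was at least 2-fold higher on some weaker ones. Of the 14 common reference genes 2 were 2-fold lower, PGK1 and GUSB, both given above. Of 21 endothelial genes 1 was lower, VWF, with PECAM1 at -0.50 and KDR, a receptor of VEGFA, at -0.20. The summed endothelial markers were 330 and 224. Smooth muscle and pericyte genes had 3 of 15 higher, ACTG2 (1.5), RGS5 (1.02) and MYH11 (1.0), and 1 lower, KCNJ8 (-1.01), while ACTA2 was at 269 and 299.5 (0.16). Skeletal muscle and stratified epithelium, tissues beside the jaw bone, were weak on both arrays, with summed markers of 5.47 and 7.45 and of 4.38 and 2.34. Of 15 epithelial genes 2 were higher, LAMA3 (1.39, other probe sets 0.26 and 0.11) and DSC2 (1.28), and 1 was lower, SBSN (-1.04). Of 10 skeletal muscle genes 1 was higher, MYL1 (0.123 and 1.82, 1.33), and none lower.

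Probe sets of one gene gave a check within the arrays. They share the RNA and the array, so they are repeat readings and not replicates. The pooled standard deviation of the day 7 difference among probe sets of the same gene was 0.38. Of 5188 genes with several probe sets above the filter, 2809 (54.1%) had the same sign on all of them. All probe sets were at least 2-fold higher in 50 genes (0.964%) and at least 2-fold lower in 40 (0.771%). The 2-fold higher genes with several probe sets numbered 141 and had 197 further probe sets, of which 177 (89.8%) were above 0, 84 (42.6%) at least 2-fold higher and 1 at least 2-fold lower. The further probe sets of all genes were 53.9% above 0 and 3.11% at least 2-fold higher. The 203 lower genes had 304 further probe sets, with 264 (86.8%) below 0 and 74 (24.3%) at least 2-fold lower, against 2.12% for all genes, and none was 2-fold higher. A further 171 of the higher genes and 159 of the lower ones rest on a single probe set, NPY, POSTN, CDH2, CD5L and CRYAB among them. Among the genes named above as at least 2-fold different, further probe sets had the opposite sign for PSAP (0.23) and KCNJ8 (0.21), as for APOE, PPBP and DGAT2. Genes named as within 2-fold could change sign with the probe set too. PECAM1 (-0.50) had others at -0.61, 0.43 and 0.62, and AXIN2 (-0.51) had others from -0.54 to 0.30. At least 1 further probe set lay far closer to 0, with the same sign, for CLIP4 (-0.07), ATP6AP1 (-0.10), ATP6V1D (-0.46), NPC2 (-0.28), PTGES (-0.30), F3 (-0.08), TPI1 (-0.17), PGK1 (-0.47), ENO1 (-0.43), PLIN2 (-0.17), MATN2 (0.15), APOD (0.39), EFEMP1 (0.43) and TREM2 (0.41). The same held, among others, for CTSD (-0.51), ZFP36 (-0.53), COL16A1 (0.59) and FBLN1 (0.39).

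Genes whose probe sets were all 2-fold the same way included several not on any list. Higher were HMCN1 (hemicentin, a matrix protein) at 2.06 and 2.24, SVEP1, a large adhesion protein of mesenchymal cells, at 1.81 and 2.42, LRIG3 at 1.75 and 2.29, and GHR, the growth hormone receptor, at 1.63 and 1.98. PPIC, a cyclophilin, read 1.47 and 1.77. MGST2, a glutathione transferase of membranes, MPP6, TCEA3, a transcription elongation factor, and SMARCA1, a chromatin remodeller, were also off the lists. Their lowest readings were 1.58, 1.48, 1.46 and 1.45. GPRC5C, given above, was off the lists too, at 2.22 and 3.23. Lower were SORL1, a sorting receptor, at -1.63 to -1.38 on 3 probe sets, VLDLR, a lipoprotein receptor, at -1.51 and -1.36, CDA, cytidine deaminase, at -1.78 and -1.33, and ARG2, a mitochondrial arginase, at -1.73 and -1.18. The protease inhibitors SERPINA1 (-1.47 and -1.29) and PI3 (elafin, -1.66 and -1.30) were lower as well.

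**Figure D4:**
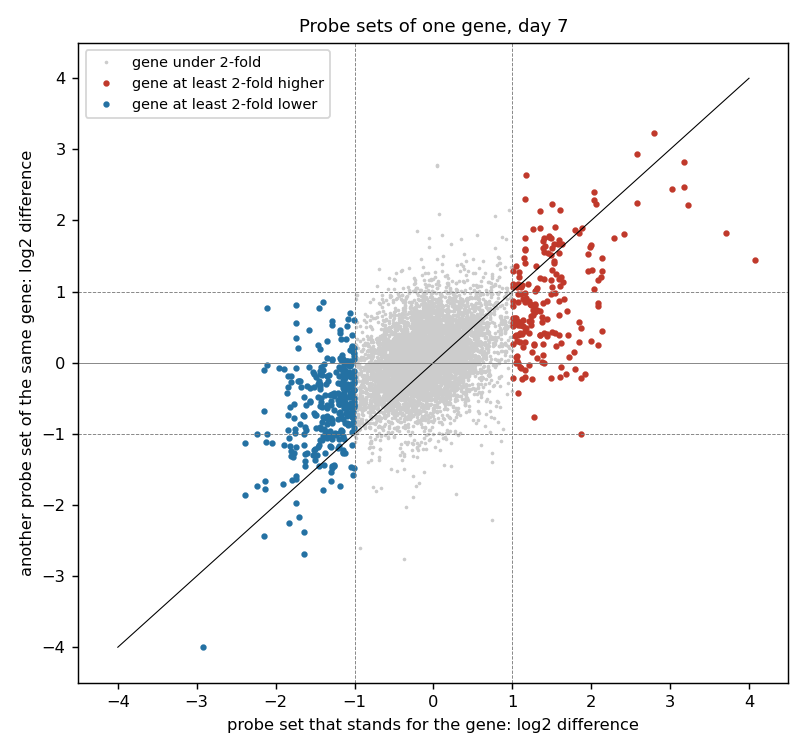
Day 7 difference (log2, beta-TCP minus control) of the probe set that stands for a gene (horizontal) against that of another probe set of the same gene (vertical), 1 point per further probe set, with dashed lines at 2-fold and a diagonal of equal differences. Of the red points (genes at least 2-fold higher) 89.8% lie above 0 and 42.6% at or above the upper dashed line, and of the blue points (genes lower) 86.8% lie below 0 and 24.3% at or below the lower one.

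The strongest probe sets lay close to the top of the scale, and there the reading of a gene depended on its probe set. On these arrays 369 probe sets, standing for 213 genes, were above 25% of the array maximum. Of these genes, 118 had other probe sets below that level, the only ones compared here. Of the 118, 101 were not 2-fold different on the standing one, and in 10 of those (9.90%) another probe set was at least 2-fold higher, in 5 (4.95%) at least 2-fold lower. Among the 4722 other genes not 2-fold different these shares were 2.77% and 1.59%. COL1A2 and SPARC are among the 10. COL1A1 is not, since its other probe sets also passed 25% of the maximum in beta-TCP, but it showed the same gap: the strongest probe set read 820.0 in the control and 881 in beta-TCP (0.10), while the other 2 went from 185 to 454 (1.29) and from 114 to 396 (1.79). For COL1A2, probe sets at 922 and 797 (-0.21), 772 and 561 (-0.46) and 675 and 649.5 (-0.05) stood beside one at 41.3 and 152 (1.86). SPARC read 688 and 719.6 (0.07) on one probe set and 46.6 and 203 (2.10) on another. For the type III chain COL3A1, 5 probe sets ran from -0.11 at the strongest to 0.94 among the weaker ones. The weaker probe sets of COL1A1, COL1A2 and SPARC thus gave at least 2-fold higher values in beta-TCP where the strongest gave none. SPP1 showed no such gap, with differences of -0.15 and 0.0. On the other side, the chemokine CXCL8 read -0.26 on its strongest probe set and -1.31 and -1.14 on the others. Saturation of the strongest probe sets was not tested.

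**Figure D5:**
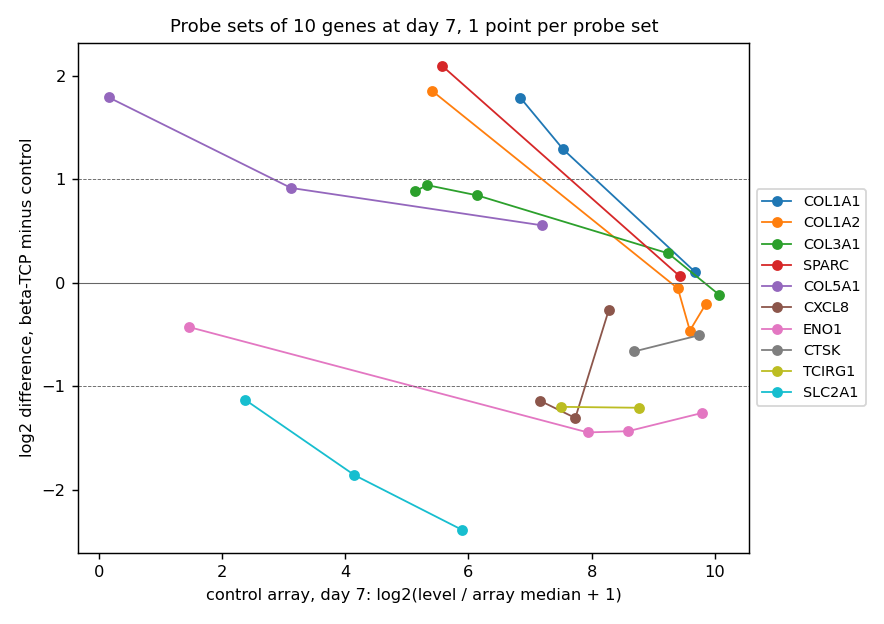
Day 7 difference (log2, beta-TCP minus control) of each probe set of 10 genes against its log2(level + 1) on the control array, 1 point per probe set, with lines joining the probe sets of a gene. For COL1A1, COL1A2 and SPARC the strongest probe sets lie near 0 and the weakest between 1.79 and 2.10, while for SLC2A1 the strongest probe set has the lowest difference (-2.38).

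The same genes were then read on the other days, each with its own pair of arrays. The deposited day 14 values are on another scale, an undivided signal with medians of 12 (control) and 6.2 (beta-TCP), and the beta-TCP array of day 14 had a Spearman correlation of only 0.763 with each array of day 7. On day 4, 72 of the 312 higher genes were at least 2-fold higher as well (4.52% of all genes were) and 10 at least 2-fold lower (3.1% of all genes were). Of the 362 lower genes, 69 were at least 2-fold lower on day 4 and 7 at least 2-fold higher. On day 14, 27 of the 312 were at least 2-fold higher (3.47% of all genes were) and 89 at least 2-fold lower (15.4% of all genes were). Of the 362, 79 were at least 2-fold lower on day 14 and 34 at least 2-fold higher. Bone sialoprotein kept one direction, as IBSP was 2.50 on day 4, 2.16 on day 7 and 1.5 on day 14. NPY, ENPP6 and MEPE had differences of 0.33, 0.21 and -0.04 on day 4 and of 5.68, 3.66 and 2.50 on day 14. Matrix genes higher on day 7 did not share a sign on day 14. POSTN was at 2.42 and -1.16 on days 4 and 14, ASPN at 2.52 and -2.62, and OGN at 1.45 and -3.87, while FBLN1 (0.38), COL14A1 (0.61) and COL9A1 (1.36) were above 0 on day 14. In POSTN, ASPN and OGN the control array had become the stronger one by day 14, as POSTN went from 6.04 to 64.3 between the control arrays of days 7 and 14. Of the 5 osteoclast markers, all below 0 on day 7, ACP5 (0.65), CTSK (0.43), ATP6V0D2 (0.30) and MMP9 (0.17) were above 0 on day 4 and TCIRG1 (-0.30) below. On day 14 the differences of these 5 were between 0.69 for CTSK and 2.12 for ACP5. Over the 13 kept genes of osteoclast resorption, none was 2-fold higher and 2 lower on day 4, and 6 higher and 2 lower on day 14. The glucose transporter SLC2A1 was lower on all 3 days, at -1.27, -2.38 and -1.17, and so was IL1R2, at -2.06, -2.04 and -2.35. MX1 and ISG15 were higher on day 7 only, with -1.28 and -1.78 on day 4 and -3.43 and -2.78 on day 14. None of these differences between days was tested.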

How the data were processed

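The report rests on 2 of the 6 arrays, 1 per group, so samples were compared by differences and counts with no test. The deposited table holds 1 signal per probe set and array, read here as an intensity: the authors deposited days 4 and 7 divided by the array's median with a floor of 0.01, and day 14 undivided. The units follow from the values themselves, and the algorithm and software are not given in the sources that were used here. Per the labels' protocols, RNA was isolated with an RNeasy fibrous tissue kit and labelled from 100 ng. Background cannot be separated from weak signal, since no detection calls were used, so levels below 1 carry little information.

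Each array was divided by its median over 42860 probe sets, and log2(level + 1) was taken. Of these probe sets, 29254 had 1 gene, 439 several and 13167 none, and RefSeq's table for assembly UU_Cfam_GSD_1.0, consulted for names, held 27680 of the 29254. Left out were 90 pairs of probe sets with one stem and the suffixes _a_at and _at. The probe set with the highest mean over the 6 arrays stood for a gene, and genes with a mean at or above the 40th percentile of all probe sets (0.70 on the log2 scale) were kept. A difference of at least 2-fold was counted.

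The named genes are the 20 highest and 20 lowest, list members past 2-fold, fixed cell type markers, and up to 20 genes each way whose probe sets were all past 2-fold. Other list members given with values are examples within 2-fold. The comparison, the 38 gene lists and the rules were chosen with earlier results of these data known, and 3 further lists were added after the values had been seen. Alternatives were 2 other pseudocounts, 3 other scalings, 5 other choices of probe set and 2 other filters, and 1 more was chosen after seeing the data. The scripts (Python 3.11.15, pandas 2.3.3, numpy 2.4.6, scipy 1.17.1, matplotlib 3.10.9) were tested on simulated data. Sequences and coordinates were not used here.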

Additional observations from a re-analysis of the deposited data

Results flagged for a closer look

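Of the 20 highest and 20 lowest genes of day 7, 11 had a difference of at least 2-fold in the opposite direction on day 14. Over all kept genes, 15.4% were at least 2-fold lower on day 14 and 3.47% at least 2-fold higher. The higher genes of day 7 among them were POSTN (-1.16 on day 14), TNN (-3.21), ASPN (-2.62), IGFBP2 (-1.38), CRABP1 (-1.28), GPNMB (-3.20) and CPZ (-1.49). The lower genes of day 7 were CRYAB (1.90 on day 14), PKIA (1.96), CLIP4 (1.99) and ABCB4 (2.31). The difference between the days was not tested, since each day and treatment has 1 array. The day 14 arrays were deposited on another scale, and their part in these opposite signs was not tested.

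Probe sets without a single gene also carried large differences. Of 13532 such probe sets 7339 passed the filter, and 258 (3.52%) were at least 2-fold higher and 242 (3.3%) lower, close to the shares of named genes. The highest had no gene and measured 5.26 in the control and 158 in beta-TCP (4.67). The next, annotated to FABP4 and other loci, differed by 4.04, in the direction of the FABP4 probe set in the report. The lowest was a probe set without a gene, at 6.65 and 0.21 (-2.66), followed by one annotated to DLA-64 and DLA88, at 33.9 and 4.61 (-2.64), in the direction of DLA88.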

How the results depend on the processing

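The counts of 312 higher and 362 lower genes were 601 and 695 with a pseudocount of 0.25, 111 and 166 with one of 4, and 177 and 227 with Cfa probe sets only. With CfaAffx probe sets only, 209 were lower. Under the other scalings they were 374 and 278 (centred), 337 and 269 (90th percentile) and 314 and 293 (quantile). The share of genes with 1 sign on all probe sets was 59.9% with the 60th percentile filter. Leaving out probe sets above 25% of the array maximum was chosen after seeing the data. Past 2-fold in every one of the 13 alternatives that measured them were 93 of the 312 and 81 of the 362, among them all of the 20 highest and 15 of the 20 lowest. Of 2476 values of named genes 211 moved and 2 changed sign, APOE to -0.21 and KCNJ8 to 0.21, both with Cfa probe sets only. Of 494 list medians under these alternatives 23 moved. No paired analysis was possible because each group has 1 array with no replicate number, and no array could be left out. Depth cannot be given for arrays; signals below the array median limit the folds of NPY, MEPE and TNN, which are understated on this scale.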

Other observations

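A further 3 lists were put together after the values had been seen, so their counts are no support for a direction. Genes of nerve growth, axon guidance and peptide processing had a median of 0.92 over 19 kept members, with 9 at least 2-fold higher and 1 lower, and 0.26 over all 32 with a probe set. Beside NPY, CPE and NDNF, ROBO2, a guidance receptor, measured 0.108 in the control and 4.48 in beta-TCP (2.31). NTRK2, the receptor of brain-derived neurotrophic factor, measured 2.10 in the control and 12.8 in beta-TCP (2.15). MAP2, a microtubule protein of dendrites, measured 1.01 in the control and 7.83 in beta-TCP (2.14, other probe set 0.44). BDNF, the ligand of NTRK2, differed by -0.22, and the nerve markers in the report were weak on both arrays.

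Genes expressed across leukocytes had a median of -0.95 over 28 kept members, with 13 at least 2-fold lower and none higher. ARHGAP9, a regulator of small GTPases, measured 95.2 in the control and 24.98 in beta-TCP (-1.89). CORO1A, an actin-binding protein of leukocytes, measured 69.7 in the control and 19.2 in beta-TCP (-1.81). LAPTM5, a lysosomal protein of these cells, measured 258 in the control and 99.3 in beta-TCP (-1.37, other probe sets -1.26 and -0.45). The common leukocyte antigen PTPRC (CD45) did not follow, at 2.35 and 3.13 (0.31), nor did CD53 (0.07). The summed neutrophil, macrophage and lymphocyte markers were all lower on the beta-TCP array. The macrophage sum lay mainly in CD68 (347 and 154), and macrophage genes did not share a direction, with 5 of 25 higher and 4 lower. The lymphocyte sum lay mainly in JCHAIN (50.9 and 43.8). The part of these cells in the leukocyte difference was not tested.

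Cholesterol and fatty acid synthesis had a median of -0.43 over 22 genes, with 19 below 0, 3 at least 2-fold lower and none higher. FADS1, which desaturates fatty acids, measured 218 in the control and 48.8 in beta-TCP (-2.13), and all 3 of its probe sets read -1.67 or lower. INSIG1, which holds back sterol synthesis, measured 43.8 in the control and 9.25 in beta-TCP (-2.13). FDFT1, the first enzyme committed to sterols, measured 16.2 in the control and 6.89 in beta-TCP (-1.12, other probe set -0.21). The regulators SREBF1 and SREBF2 were at 0.47 and -0.51.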
